A study of Mus musculus with 20 samples.

Results

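The heart takes most of its energy from fatty acids, and 34 genes of their uptake, storage and mitochondrial oxidation were followed through the deposited table. The genes were listed by symbol according to their known function, with earlier results of these data known. All 34 were found among the 25851 genes of the table. They comprise 5 genes of uptake, 24 of oxidation and 5 of storage and lipolysis. All 34 also passed the filter on low values (a mean of at least 0.5 FPKM over all libraries), as did 13723 genes in all.

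Heart samples of 20 male mice were profiled at an age of 14 to 16 weeks, with 5 per group. Wild-type mice (WT_Sed) and mice with a cardiomyocyte knockout of PGC-1α (KO_Sed) were kept sedentary, and further mice of each genotype (WT_Ex and KO_Ex) had 6 weeks of endurance training on a voluntary running wheel. PGC-1α, encoded by Ppargc1a, is a transcriptional coactivator of mitochondrial biogenesis and oxidative metabolism. The driver of the knockout, the deleted part of the gene and the strain are not given in the sources used here. The title of the series places the question in cardiac adaptation to training and its dependence on PGC-1α.

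In the capillaries of the heart, lipoprotein lipase frees fatty acids from circulating triglyceride, and transporters and binding proteins carry them into the cardiomyocyte. There they are activated to acyl-CoA and then either stored as triglyceride in droplets or moved into mitochondria as carnitine esters. Malonyl-CoA restrains that last step. Inside the matrix each turn of the β-oxidation cycle runs through a dehydrogenase, a hydratase, a second dehydrogenase and a thiolase, and the electrons of the first step reach the respiratory chain through electron transfer flavoprotein.

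Values are FPKM, which are per length and per library and allow levels of different genes to be set side by side. The library size behind them, recovered from the values, was not the read total, and a larger size gives a lower FPKM. It was below the read total in every sedentary library (17.1 against 19.9 M in WT_Sed replicate 3). In every trained labelled knockout library it was above (24.5 against 22.3 M in KO_Ex replicate 4), and trained wild-type libraries had both cases. Depth was 14.2 to 30.4 M reads per library. Fold changes are differences of group means of log2(FPKM + 0.5) ± SE from 1 limma fit of the 4 groups, so they understate the change of low genes, and a gene is said to have fallen or risen where its adjusted p over 13723 genes was below 0.05. Values given in parentheses after a change, and the sizes of a fall, are log2 fold changes. Group levels are means ± SD with n = 5, and gene positions are on GRCm38. The libraries were poly-A selected and directional, with 1 batch label for all. The design text counts 5 mice in each group, and the p-values measure the spread between these mice.

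Some libraries stood apart in genes outside the members, and they were picked out after the data had been seen. Ppargc1a itself was higher in the hearts labelled knockout, at 22.9 ± 4.41 FPKM against 12.3 ± 2.85 FPKM in sedentary and 22.6 ± 3.01 against 15.8 ± 4.86 FPKM in trained hearts, so these hearts are called "labelled knockout" throughout and each genotype direction rests on the labels. The values count reads over all exons and cannot show the loss of a part of the gene. The cardiomyocyte marker Myh6 was abundant in every library (3165 to 6428 FPKM). The atrial gene Myl7 exceeded 1000 FPKM in 4 trained libraries (WT_Ex replicates 4 and 5, KO_Ex replicates 2 and 5) and did not exceed 97.1 FPKM in any other library. Those 4 also carried transcripts of fat cells, namely Adipoq (3.94 to 36.7 FPKM, with 0.362 FPKM as the highest other value) and Ucp1 (4.42 to 117 FPKM, near 0 elsewhere). The clock gene Arntl exceeded 2 FPKM in 5 libraries, replicates 1 to 4 of WT_Sed and replicate 1 of KO_Sed. Results are given below with and without these libraries wherever their removal ends or adds calls by more than 1.5 times. Where their removal leaves 1 sedentary wild-type library, medians are given and counts of calls are not.

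In every comparison the members that passed the test fell, and none rose, although 4 (Cd36, Acad10, Lipe and Dgat1) passed in no comparison. The trained labelled knockout group had the lowest mean of the 4 groups for 32 of the 34 genes (Lipe and Dgat1 were lowest in the sedentary labelled knockout group), and the sedentary wild-type group had the highest mean for 26. Set against sedentary wild-type hearts, trained labelled knockout hearts kept a median of 55% of the level over the 5 uptake genes (46.4 to 84%), 45% over the 24 oxidation genes (35.5 to 82.3%) and 85.8% over the 5 storage genes (49.8 to 101%). Differences between the 3 classes were not tested. In bulk heart RNA, fewer cells of a type and less RNA per cell cannot be told apart.

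**Figure D1:**
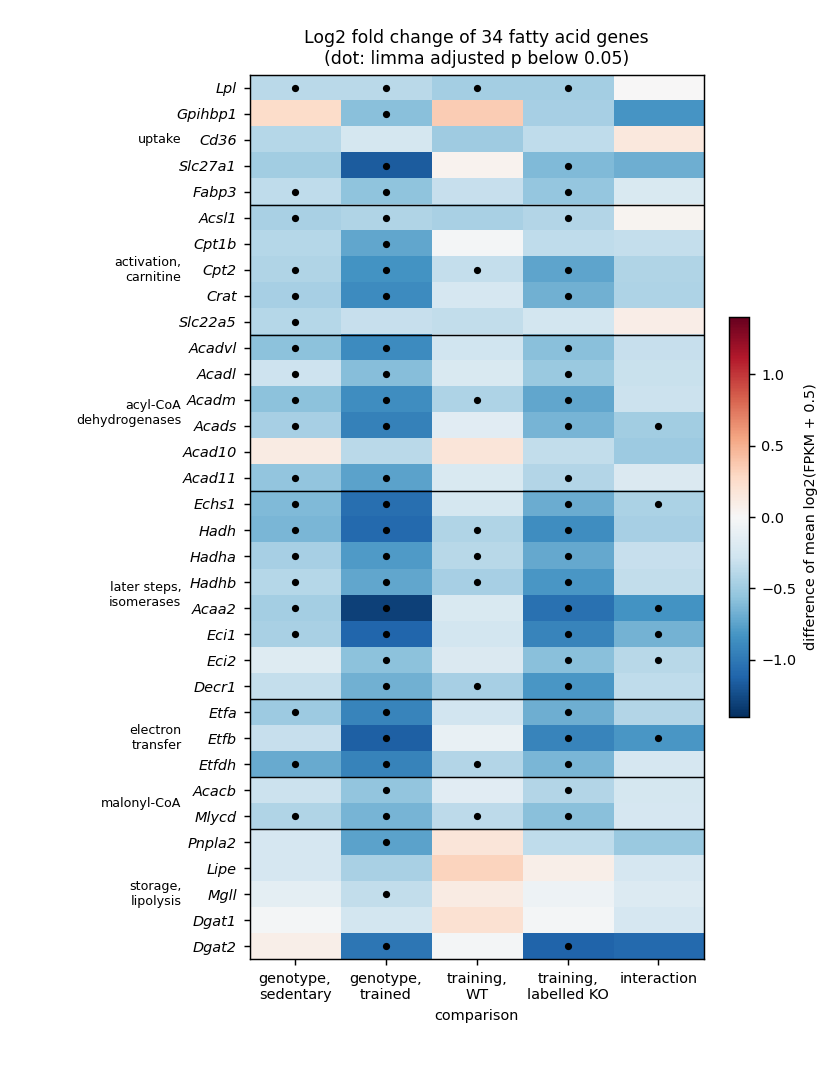
Log2 fold change of each of the 34 genes (rows, ordered by role) in 5 comparisons (columns), where genotype is labelled knockout against wild-type, training is trained against sedentary and interaction is how much further training moved the gene in labelled knockout than in wild-type hearts. Blue is lower, red is higher, and a dot marks a limma adjusted p below 0.05. Every dot stands on a blue cell, with 20, 29, 9, 25 and 6 dots from left to right.

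In sedentary hearts 20 of 34 members fell in the labelled knockout and 0 rose, against 6.32% of all genes tested that fell and 6.96% that rose. The members' median log2 fold change was -0.40, beside -0.01 over all genes tested. The 5 labelled knockout libraries lay below all 5 wild-type libraries for 19 members, against 5.29% of all genes. Most libraries with high Arntl are sedentary wild-type ones, so a dependence of these calls on Arntl cannot be told apart from genotype. Without the 5 libraries with Arntl above 2 FPKM the median was -0.38. That fit holds 1 sedentary wild-type library, which is assumed to vary like the other groups. With log2 Arntl as a covariate 9 members passed, with a median of -0.43.

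In trained hearts 29 of 34 members fell in the labelled knockout and 0 rose, where 15.4% of all genes tested fell and 12.5% rose. The members' median was -0.74, beside -0.01 over all genes. Library values did not overlap for 26 members, against 11.1% of all genes. The 5 members that did not pass were Cd36, Slc22a5, Acad10, Lipe and Dgat1. Without the 4 libraries with Myl7 above 1000 FPKM 32 members passed, and the median was -0.91.

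**Figure D2:**
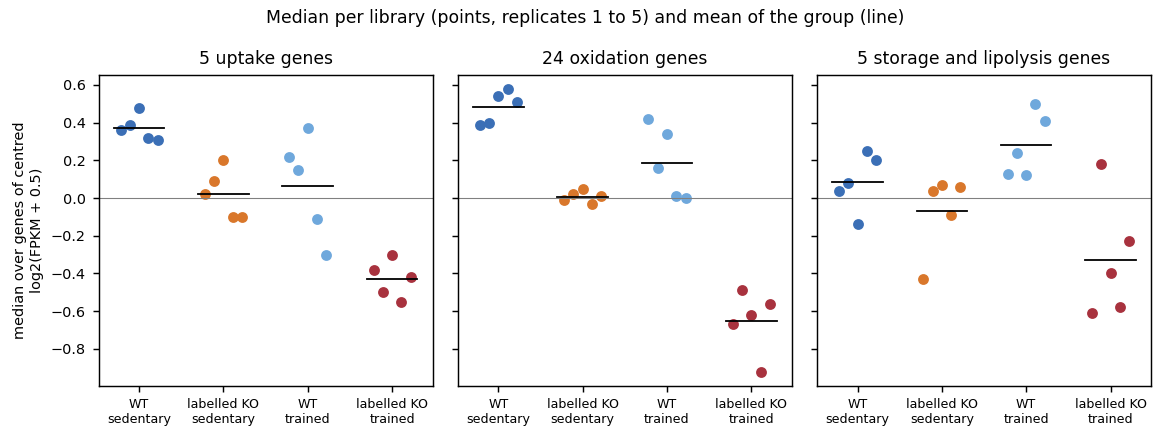
For each library (points, replicates 1 to 5 from left to right in each group), the median over the genes of a class of log2(FPKM + 0.5) after each gene was centred on its mean over 20 libraries, with the group mean as a line. The 24 oxidation genes lie at 0.39 to 0.58 in sedentary wild-type, -0.03 to 0.05 in sedentary labelled knockout, 0.00 to 0.42 in trained wild-type and -0.92 to -0.49 in trained labelled knockout libraries, while the storage genes of 1 trained labelled knockout library lie at 0.18.

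Of the uptake genes 2 of 5 fell in the labelled knockout in sedentary hearts (median -0.38) and 4 of 5 in trained hearts (median -0.56). Lpl, lipoprotein lipase, had 615 ± 58.9, 472 ± 64.8, 446 ± 92.8 and 338 ± 31.1 FPKM in sedentary wild-type, sedentary labelled knockout, trained wild-type and trained labelled knockout hearts. It fell with genotype in sedentary and trained hearts (log2 fold changes -0.38 and -0.38), and also (-0.48 and -0.48) with training in wild-type and labelled knockout hearts, so that its interaction was near 0 (0.01 ± 0.17, 95% interval -0.36 to 0.37). Leaving out any of 9 libraries ended its sedentary genotype call, any of 5 its trained genotype call and any of 6 its wild-type training call. With each library scaled to the same FPKM sum, Lpl passed in no genotype or training comparison. Its values were then -0.29 and -0.09 for genotype in sedentary and trained hearts. For training they were -0.40 in wild-type and -0.20 in labelled knockout hearts. Gpihbp1, the endothelial protein that anchors lipoprotein lipase, was 34.3 ± 9.43 FPKM in trained wild-type and 22.3 ± 2.5 FPKM in trained labelled knockout hearts (log2 fold change -0.58 ± 0.19, adjusted p = 0.0312). That call ended without WT_Ex replicate 2 or 3 or without KO_Ex replicate 1, 2 or 3, with no filter on low values, and with the same FPKM sum in each library (-0.29, adjusted p = 0.214). The scavenger receptor Cd36, a fatty acid translocase, passed in no comparison, and its mean went from 485 FPKM in sedentary wild-type to 288 FPKM in trained labelled knockout hearts.

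Fabp3, the heart-type fatty acid binding protein, was the most abundant of the 34 genes (ENSMUSG00000028773, chromosome 4, 130308595 to 130315463, plus strand). Its FPKM in replicates 1 to 5 was 4519, 4591, 4449, 4760 and 4675 in sedentary wild-type and 3550, 3735, 4021, 3533 and 3269 in sedentary labelled knockout hearts. After training it was 4037, 3906, 4589, 3251 and 2843 in wild-type and 2574, 2374, 2760, 2317 and 2444 in labelled knockout hearts. Groups of opposite genotype did not overlap at either activity, and trained wild-type replicates 4 and 5, which carry atrial transcripts, were the lowest of their group. Fabp3 fell by 0.35 (SE 0.10, adjusted p = 0.0342) in sedentary and fell by 0.56 (SE 0.10, adjusted p = 4.4e-04) in trained labelled knockout hearts. Leaving out WT_Sed replicate 1, 2, 3 or 4, or KO_Sed replicate 2, 4 or 5, ended the sedentary call (adjusted p up to 0.0901, log2 fold change -0.36 to -0.31), as did the same FPKM sum in each library (-0.25, adjusted p = 0.0741).

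Slc27a1, fatty acid transport protein 1, moved most of the uptake genes in trained hearts (ENSMUSG00000031808, chromosome 8, 71568882 to 71587302, plus strand). Its FPKM was 38.5, 47.5, 57.9, 66.4 and 66.3 in sedentary wild-type and 32.3, 38.1, 48, 38.3 and 37.7 in sedentary labelled knockout libraries, which overlap. In trained hearts it was 48.3, 64.5, 53.5, 57.9 and 58.4 in wild-type and 21.8, 32.1, 21.3, 18.2 and 34.9 in labelled knockout libraries. The trained groups were clearly apart, and the lowest trained wild-type library lay above the highest trained labelled knockout library. The trained genotype difference was -1.16 ± 0.17 (adjusted p = 4.1e-05), whereas the sedentary one was -0.49 ± 0.17 (adjusted p = 0.0681). The difference between those 2 differences, which is the interaction, was -0.68 ± 0.24 and did not pass (adjusted p = 0.0929).

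**Figure D3:**
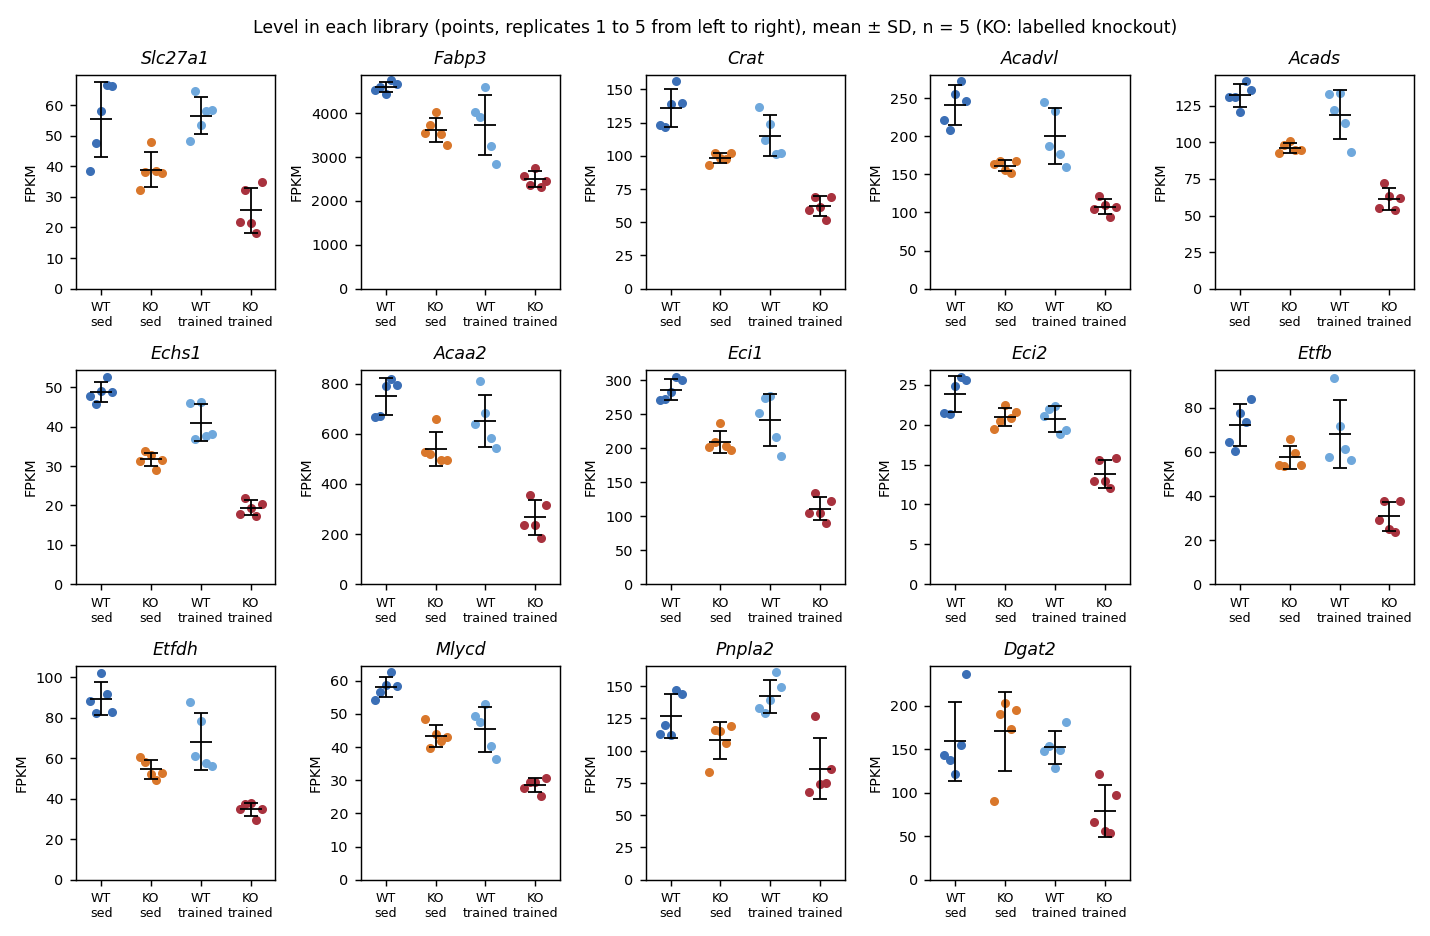
FPKM of the 14 members described library by library, in 4 groups (sed, sedentary; KO, labelled knockout). Points are the 5 libraries of a group and the bar is the mean ± SD with n = 5, on axes that start at 0. In trained hearts the labelled knockout points lie below all wild-type points in each of the 14 panels, closely so in those of Fabp3, Pnpla2 and Dgat2.

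For each of the 5 genes of activation and carnitine transfer the group mean was highest in sedentary wild-type and lowest in trained labelled knockout hearts. Of these 5 genes, 4 fell in sedentary and 4 in trained labelled knockout hearts (medians -0.42 and -0.73). Acsl1, the main long-chain acyl-CoA synthetase of the heart, fell in both genotype comparisons (-0.45 and -0.42), from 97.3 to 70.9 FPKM in sedentary and from 72.9 to 53.4 FPKM in trained hearts. Its trained call ended without WT_Ex replicate 1 or 3 or KO_Ex replicate 4 or 5, and 7 of 20 single libraries ended its sedentary call. With the same FPKM sum in each library Acsl1 passed in neither (-0.36 and -0.13). Cpt2, carnitine palmitoyltransferase 2 of the inner membrane, fell from 134 ± 8.64 to 100 ± 7.77 FPKM in sedentary and from 107 ± 15.1 to 59.8 ± 6.49 FPKM in trained hearts (log2 fold changes -0.42 ± 0.09 and -0.84 ± 0.09). Cpt1b, the muscle form of carnitine palmitoyltransferase 1 on the outer membrane, was listed at only 2.92, 2.06, 2.83 and 1.49 FPKM. In the annotation 81.4% of its exon bases are shared on the same strand with the gene model Gm44502, which is not analysed here, so its level is uncertain. As listed it fell in trained labelled knockout hearts (-0.73 ± 0.15). Slc22a5, the carnitine importer OCTN2, fell in sedentary (-0.40 ± 0.12, with 6 of 20 single libraries and a common FPKM sum ending the call) and did not pass in trained hearts (-0.32 ± 0.12, adjusted p = 0.0592).

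Crat, carnitine acetyltransferase, which shuttles acetyl groups between CoA and carnitine, was the clearest of this group (ENSMUSG00000026853, chromosome 2, 30400471 to 30415813, minus strand). Its FPKM was 123, 122, 139, 156 and 140 in sedentary wild-type and 92.8, 102, 98.4, 97.5 and 102 in sedentary labelled knockout libraries. In trained hearts wild-type libraries had 137, 112, 124, 101 and 102 and labelled knockout libraries 59.5, 68.9, 61.4, 52 and 69.2 FPKM. No library of 1 genotype reached the range of the other at the same activity. Crat fell by 0.46 in sedentary and fell by 0.88 in trained labelled knockout hearts (SE 0.09 and 0.09, adjusted p = 0.00327 and 9.5e-07).

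The acyl-CoA dehydrogenases, which take the first step of each β-oxidation cycle and differ in the chain length they prefer, fell in 5 of 6 genes in sedentary and in 5 of 6 in trained labelled knockout hearts (medians -0.51 and -0.81). The very long-, long-, medium- and short-chain enzymes Acadvl, Acadl, Acadm and Acads fell in both. Acadl, at 579 FPKM the most abundant of them in sedentary wild-type hearts, had the smallest of these falls (log2 fold changes -0.29 and -0.60), and its sedentary call ended with the same FPKM sum in each library (-0.19, adjusted p = 0.0583). Acadm had 363 ± 37.4 FPKM in sedentary wild-type, 243 ± 13.1 in sedentary labelled knockout, 272 ± 52.8 in trained wild-type and 148 ± 19.8 in trained labelled knockout hearts. Acad11, an enzyme for hydroxylated acids and long chains, also fell in both (-0.55 and -0.75). Acad10 was low, at 1.47 to 2.07 FPKM over the group means, and passed in neither.

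Acadvl was the dehydrogenase with the smallest p in sedentary hearts (ENSMUSG00000018574, chromosome 11, 70010183 to 70015411, minus strand). Its FPKM was 221, 208, 256, 272 and 246 in wild-type and 164, 168, 156, 152 and 167 in labelled knockout sedentary libraries. Trained libraries had 245, 187, 233, 177 and 160 FPKM in wild-type and 104, 122, 110, 94.1 and 107 FPKM in labelled knockout hearts. Labelled knockout sedentary values were tightly grouped below the wild-type range, and trained labelled knockout values lay lower still. The genotype differences were -0.57 ± 0.11 (adjusted p = 0.00161) and -0.88 ± 0.11 (adjusted p = 4.0e-06). The annotation shares 42.9% of the exon bases of Acadvl with Dvl2 on the opposite strand, and whether the counting used strand is not given in the sources used here. Dvl2 had a mean of 2.12 FPKM, against 178 FPKM for Acadvl.

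Acads showed the largest trained genotype difference of the dehydrogenases (ENSMUSG00000029545, chromosome 5, 115110299 to 115119346, minus strand). Sedentary libraries had 131, 131, 121, 142 and 136 FPKM in wild-type and 92.6, 97.9, 101, 94.9 and 94.7 FPKM in labelled knockout hearts. Trained libraries had 133, 122, 134, 113 and 93.1 FPKM in wild-type and 55.4, 72.1, 63.3, 53.6 and 61.7 FPKM in labelled knockout hearts. Wild-type levels largely overlapped between sedentary and trained mice, whereas all trained labelled knockout libraries lay below all sedentary ones. Acads fell by 0.46 in sedentary and fell by 0.95 in trained labelled knockout hearts (SE 0.09 and 0.09, adjusted p = 0.00263 and 3.3e-07).

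The later enzymes of the cycle, with the isomerases and the reductase that handle double bonds of unsaturated acids, had the lowest median of the oxidation classes with more than 3 genes in trained hearts. Of the 8 genes, 6 fell in sedentary and 8 in trained labelled knockout hearts (medians -0.46 and -0.92). Hadh, which oxidises medium and short hydroxyacyl chains, had 137 ± 7.91, 87.9 ± 3.22, 103 ± 14.1 and 48.7 ± 10.5 FPKM in sedentary wild-type, sedentary labelled knockout, trained wild-type and trained labelled knockout hearts. The last of these is 35.5% of the first, the lowest such share of the 34 genes. Decr1, the dienoyl-CoA reductase, fell in trained hearts (-0.67 ± 0.12), and in sedentary hearts its groups did not overlap but the test was not passed (-0.33 ± 0.12, adjusted p = 0.072).

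Hadha and Hadhb encode the α and β subunits of the mitochondrial trifunctional protein, which carries out the last 3 steps on long chains. Both fell, with log2 fold changes of -0.46 and -0.40 in sedentary and of -0.79 and -0.73 in trained labelled knockout hearts, and the sedentary call of Hadhb ended on leaving out any of 5 libraries. Group means of Hadha were 223, 161, 172 and 98.1 FPKM and those of Hadhb 272, 206, 199 and 118 FPKM, in the order of the groups above. Once the group means were removed, the 2 genes varied together over the 20 libraries (Pearson r = 0.90, a description over libraries that share depth and makeup). The genes stand head to head on chromosome 5, and the 85 bases between their annotated starts in GENCODE M21 (GRCm38, chr5:30155163-30155247, printed along the plus strand, with the start of Hadha to the left on the minus strand and that of Hadhb to the right on the plus strand) are shown because 1 short stretch lies before both genes. It has 69.4% G and C and 9 CG pairs.
Hadha-Hadhb: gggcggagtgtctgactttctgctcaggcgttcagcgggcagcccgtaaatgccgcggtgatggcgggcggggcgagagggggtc

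Echs1, the short-chain enoyl-CoA hydratase of the second step, had the smallest p of all members in sedentary hearts (ENSMUSG00000025465, chromosome 7, 140105710 to 140116476, minus strand). Its FPKM was 47.7, 45.7, 49.1, 52.6 and 48.7 in sedentary wild-type and 31.3, 33.7, 32.7, 29.1 and 31.6 in sedentary labelled knockout libraries. It was 46.1, 36.8, 46.3, 37.7 and 38.2 in trained wild-type and 17.9, 22, 19.4, 17.3 and 20.4 in trained labelled knockout libraries. Replicates within each group lay close together, and the genotypes were far apart at both activities. Echs1 fell by 0.62 in sedentary and fell by 1.06 in trained labelled knockout hearts (SE 0.08 and 0.08, adjusted p = 5.2e-05 and 2.3e-08).

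Acaa2, the 3-ketoacyl-CoA thiolase that ends the cycle, had the largest genotype difference of the 34 genes (ENSMUSG00000036880). Its FPKM was 668, 671, 791, 820 and 795 in sedentary wild-type and 529, 519, 659, 494 and 494 in sedentary labelled knockout libraries. In trained hearts it was 638, 812, 682, 583 and 544 in wild-type and 237, 357, 237, 186 and 316 in labelled knockout libraries. The sedentary groups nearly touched, since KO_Sed replicate 3 reached almost the lowest wild-type value, and the trained groups were wide apart. KO_Ex replicates 2 and 5, which carry atrial and fat cell transcripts, were the highest of the trained labelled knockout libraries. The genotype difference was -0.48 ± 0.15 (adjusted p = 0.0377) in sedentary and -1.31 ± 0.15 (adjusted p = 1.8e-06) in trained hearts. The sedentary call ended on leaving out WT_Sed replicate 3, 4 or 5 or KO_Sed replicate 2, 4 or 5, and with the same FPKM sum in each library (-0.38, adjusted p = 0.0755).

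Eci1, enoyl-CoA isomerase 1, shifts double bonds so that unsaturated acids stay in the cycle (ENSMUSG00000024132, chromosome 17, 24426641 to 24439348, plus strand). It had 271, 272, 282, 304 and 300 FPKM in sedentary wild-type and 201, 209, 237, 203 and 197 FPKM in sedentary labelled knockout libraries. Trained libraries had 252, 273, 276, 216 and 188 FPKM in wild-type and 105, 134, 104, 89.9 and 122 FPKM in labelled knockout hearts. All trained labelled knockout libraries lay below every other library of the series. Its genotype difference was -0.45 ± 0.11 in sedentary and -1.11 ± 0.11 in trained hearts (adjusted p = 0.00965 and 3.7e-07).

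Eci2, the related isomerase of mitochondria and peroxisomes, was less abundant (ENSMUSG00000021417, chromosome 13, 34977748 to 35027096, minus strand). It had 21.5, 21.3, 24.9, 26 and 25.6 FPKM in sedentary wild-type and 19.5, 20.4, 22.5, 20.8 and 21.6 FPKM in sedentary labelled knockout libraries, which overlap. After training it had 21.1, 22, 22.4, 18.8 and 19.3 FPKM in wild-type and 12.9, 15.6, 12.9, 12 and 15.8 FPKM in labelled knockout libraries, which do not. The sedentary difference was -0.18 ± 0.08 (adjusted p = 0.157) and the trained one -0.57 ± 0.08 (adjusted p = 3.4e-05).

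Electron transfer flavoprotein passes the electrons of the dehydrogenases to its membrane-bound oxidoreductase, which reduces ubiquinone. Of its 3 genes 2 fell in sedentary and 3 in trained labelled knockout hearts (medians -0.51 and -0.94). Etfa, the α subunit, had 372 ± 29.1, 260 ± 11.1, 311 ± 39.4 and 163 ± 19.3 FPKM in the 4 groups in the order above and fell in both comparisons (-0.51 ± 0.09 and -0.92 ± 0.09). Etfdh, the oxidoreductase (ENSMUSG00000027809, chromosome 3, 79603788 to 79629500, minus strand), had 88.4, 82, 102, 91.5 and 82.9 FPKM in sedentary wild-type and 60.4, 58.2, 51.9, 49.4 and 52.7 FPKM in sedentary labelled knockout libraries. Trained libraries had 87.7, 60.8, 78.1, 57.7 and 56 FPKM in wild-type and 34.7, 37.1, 37.7, 29.3 and 34.7 FPKM in labelled knockout hearts. Etfdh had the largest sedentary genotype difference of the 34 genes, -0.71 ± 0.11 (adjusted p = 3.8e-04), and its trained difference was -0.94 ± 0.11 (adjusted p = 3.4e-06).

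Etfb, the β subunit, did not pass in sedentary hearts (ENSMUSG00000004610, chromosome 7, 43444083 to 43457800, plus strand). Its FPKM was 64.4, 60.6, 77.8, 73.6 and 84.1 in wild-type and 54.2, 53.5, 66, 59.7 and 54 in labelled knockout sedentary libraries, with overlap. It was 57.8, 93.6, 71.7, 61.5 and 56.4 in trained wild-type and 29.3, 37.9, 25.2, 23.5 and 37.6 in trained labelled knockout libraries, without overlap. The difference was -0.32 ± 0.15 in sedentary hearts (adjusted p = 0.156) and -1.14 ± 0.15 in trained hearts (adjusted p = 8.8e-06). The annotation shares 53% of its exon bases on the same strand with Gm45233, which was listed at a mean of 0.0188 FPKM against 57.1 FPKM for Etfb, and a shift of reads between the 2 models was not tested.

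The pair that sets malonyl-CoA, the inhibitor of carnitine palmitoyltransferase 1, fell together in trained labelled knockout hearts. Acacb, the acetyl-CoA carboxylase that makes malonyl-CoA at the mitochondrial surface, was 50.3 ± 6.88 FPKM in trained wild-type and 34.2 ± 4.11 FPKM in trained labelled knockout hearts (-0.55 ± 0.11), and did not pass in sedentary hearts (-0.30 ± 0.11, adjusted p = 0.0799). Mlycd, malonyl-CoA decarboxylase, which removes it (ENSMUSG00000074064, chromosome 8, 119394878 to 119411102, plus strand), had 54.2, 56.7, 58.8, 62.7 and 58.3 FPKM in sedentary wild-type and 48.6, 39.8, 44, 41.7 and 42.9 FPKM in sedentary labelled knockout libraries. In trained libraries it had 49.3, 47.7, 53, 40.3 and 36.4 FPKM in wild-type and 27.7, 29.6, 29.5, 25.2 and 30.8 FPKM in labelled knockout hearts. Libraries of opposite genotype did not overlap at either activity. Mlycd fell by 0.42 in sedentary and fell by 0.65 in trained labelled knockout hearts (SE 0.09 and 0.09, adjusted p = 0.00411 and 1.8e-05).

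Of the storage and lipolysis genes Pnpla2, Mgll and Dgat2 fell with genotype in trained hearts, and none of the 5 passed in the interaction. In sedentary labelled knockout hearts 0 of 5 passed (median -0.14, with 0 at an unadjusted limma p below 0.05), and in trained hearts 3 of 5 fell (median -0.45). Without the 4 libraries with Myl7 above 1000 FPKM all 5 fell in trained hearts (median -0.66). Fat cells express several of these genes strongly. KO_Ex replicate 2, with the highest Adipoq and Ucp1, had 20.5 FPKM of Lipe and 13.3 FPKM of Dgat1, the highest value of the series for each. Without the 4 libraries the labelled knockout training median of the 5 genes moved from -0.07 to -0.32, with 2 genes called in place of 1.

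Pnpla2, adipose triglyceride lipase, which starts the breakdown of stored triglyceride (ENSMUSG00000025509, chromosome 7, 141455198 to 141460743, plus strand), had 113, 120, 112, 147 and 144 FPKM in sedentary wild-type and 83.6, 116, 115, 106 and 119 FPKM in sedentary labelled knockout libraries. Trained wild-type libraries had 133, 129, 139, 161 and 149 FPKM and trained labelled knockout libraries 68, 127, 74.1, 75.3 and 85.8 FPKM. The trained groups were separated only narrowly, by KO_Ex replicate 2. Pnpla2 fell in trained labelled knockout hearts (-0.75 ± 0.14, adjusted p = 4.6e-04) and did not pass in sedentary ones (-0.23 ± 0.14, adjusted p = 0.275).

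Lipe, hormone-sensitive lipase, which takes the second step, passed in no comparison, with means of 9.19, 7.87, 11.7 and 9.31 FPKM in the order above, and 15.6% of its exon bases are shared with 4732471J01Rik on the opposite strand. Mgll, monoglyceride lipase, which takes the third, was 39 ± 3.7 FPKM in trained wild-type and 30.8 ± 3.28 FPKM in trained labelled knockout hearts (-0.34 ± 0.10, adjusted p = 0.0181). With each library scaled to the same FPKM sum the Mgll difference was -0.05 and did not pass (adjusted p = 0.756). Dgat1, an enzyme of the last step of triglyceride synthesis, also passed in no comparison, and its group means lay between 8.69 and 10.4 FPKM.

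Dgat2, the other enzyme of that step, had the largest training change of the 34 genes in labelled knockout hearts (ENSMUSG00000030747, chromosome 7, 99153658 to 99182719, minus strand). It had 144, 138, 122, 155 and 237 FPKM in sedentary wild-type and 91.1, 191, 203, 173 and 195 FPKM in sedentary labelled knockout libraries. It had 148, 154, 129, 149 and 181 FPKM in trained wild-type and 66.3, 122, 56.4, 53.6 and 97.7 FPKM in trained labelled knockout libraries. WT_Sed replicate 5 and KO_Sed replicate 1 lay far from the rest of their groups, and the 2 highest trained labelled knockout values belonged to the libraries with atrial and fat cell transcripts. With training Dgat2 fell in labelled knockout hearts (-1.12 ± 0.24, adjusted p = 0.00153), although the libraries overlapped, and the trained genotype difference was -1.01 ± 0.24 (adjusted p = 0.00335). In sedentary hearts the genotype difference was 0.08 ± 0.24, and its interaction of -1.09 ± 0.34 did not pass (adjusted p = 0.0546).

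With training 25 of 34 members fell in labelled knockout hearts and 0 rose, where 16.3% of all genes tested fell and 12.1% rose, and the members' median was -0.59 beside -0.02 over all genes. The trained libraries lay below all sedentary labelled knockout libraries for 21 members, against 13.7% of all genes. By class, 3 of 5 uptake, 21 of 24 oxidation and 1 of 5 storage genes fell, with medians of -0.48, -0.66 and -0.07. After Dgat2 the largest decreases were those of Acaa2 (-1.04 ± 0.15), Eci1 (-0.92 ± 0.11) and Etfb (-0.92 ± 0.15). Without the 4 libraries with Myl7 above 1000 FPKM 28 members fell. With the same FPKM sum in each library 5 of the 25 calls ended, those of Lpl, Slc27a1, Acsl1, Acad11 and Acacb (-0.36 to -0.14).

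In wild-type hearts 9 of 34 members fell with training and 0 rose, where 2.53% of all genes tested fell and 2.94% rose. The median was -0.25 beside -0.01 over all genes, and groups were without overlap for 3 members (Cpt2, Hadh and Mlycd), against 1.68% of all genes. The 9 were Lpl, Cpt2, Acadm, Hadh, Hadha, Hadhb, Decr1, Etfdh and Mlycd, with log2 fold changes from -0.33 (Cpt2) to -0.48 (Lpl). Cd36 had the lowest value of all, -0.50 ± 0.15, and did not pass (adjusted p = 0.0521). None of the 5 storage genes passed (median 0.17, with 0 at an unadjusted limma p below 0.05).

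These wild-type calls depended on the libraries in the fit. Without the 4 libraries with Myl7 above 1000 FPKM, among them trained wild-type replicates 4 and 5, 0 members passed and the median was -0.12. Without the 5 libraries with Arntl above 2 FPKM the median was -0.30, in a fit with 1 sedentary wild-type library. Leaving out single libraries gave 0 calls (WT_Sed replicate 3, WT_Ex replicate 4 or 5), 1 call (WT_Sed replicate 1, WT_Ex replicate 2), 4 calls (WT_Sed replicate 2 or 4, KO_Sed replicate 2 or 5, KO_Ex replicate 1 or 3), 5 calls (KO_Sed replicate 4) or 19 calls (WT_Ex replicate 1). In trained wild-type hearts the oxidation medians of the libraries were 0.42, 0.16, 0.34, 0.01 and 0.00 on the centred log2 scale in replicates 1 to 5, so that replicates 4 and 5 were the lowest.

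**Figure D4:**
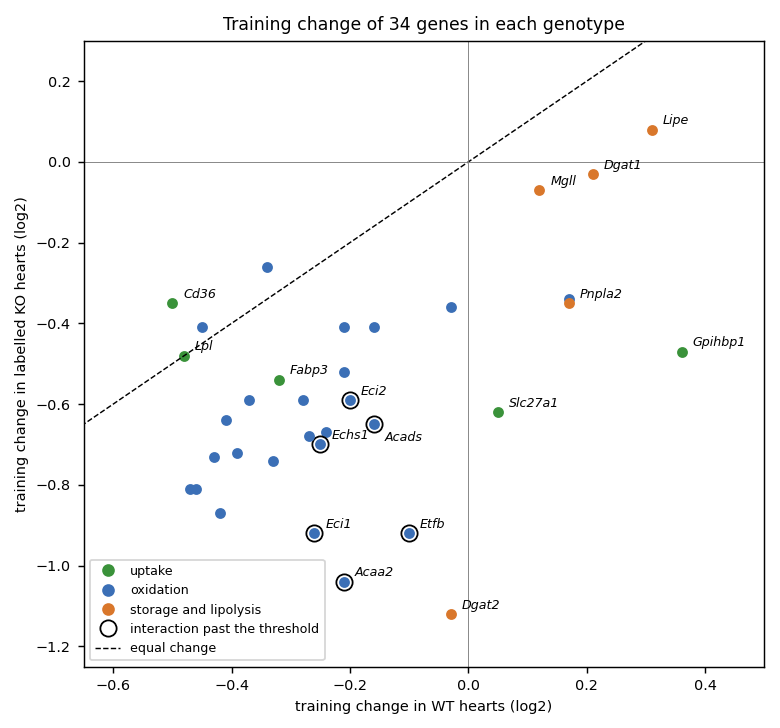
Training change in wild-type (horizontal) and in labelled knockout hearts (vertical) on the log2 scale, 1 point per gene and coloured by class, with the line of equal change dashed. Points below the line changed more steeply downward in labelled knockout hearts (30 of 34 genes), and rings mark the 6 genes whose interaction passed.

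The training change differed between genotypes for 6 of the 34 members, all lower in labelled knockout hearts, where 5% of all genes tested had a lower and 2.32% a higher interaction. The members' median interaction was -0.33 beside -0.01 over all genes, and 30 of 34 values were negative. All 6 belong to oxidation. Acaa2 had -0.84 ± 0.21 (adjusted p = 0.0233), Etfb -0.82 ± 0.21 (adjusted p = 0.0253) and Eci1 -0.66 ± 0.15 (adjusted p = 0.017). The other 3 were Acads with -0.49 ± 0.13 (adjusted p = 0.0299), Echs1 with -0.44 ± 0.11 (adjusted p = 0.0232) and Eci2 with -0.39 ± 0.12 (adjusted p = 0.0494). In wild-type hearts the training change of these 6 genes did not pass and lay between -0.26 and -0.10. In labelled knockout hearts it lay between -1.04 and -0.59. The 2 training changes share no library, and over the 34 members their Pearson correlation was 0.46, given as a description over genes that are not independent.

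The interaction calls depended on the libraries and on the scaling. Without the 4 libraries with Myl7 above 1000 FPKM 20 members passed, all lower, with a median of -0.58, and these were 1 uptake, 17 oxidation and 2 storage genes. This count was not compared with the share of all genes called in that fit. Without the 5 libraries with Arntl above 2 FPKM the median was -0.32, in a fit with 1 sedentary wild-type library. With each library scaled to the same FPKM sum 0 passed and the median was -0.15, beside 0.15 over all genes. Leaving out single libraries gave 2 calls (WT_Sed replicate 2, KO_Sed replicate 3), 3 calls (WT_Sed replicate 1, KO_Ex replicate 4), 10 calls (WT_Sed replicate 4 or 5, KO_Ex replicate 5) or 12 calls (KO_Sed replicate 1, KO_Ex replicate 2). Eci1 passed in each of these 20 leave-outs, Echs1 in all but 1 (WT_Sed replicate 2, -0.42, adjusted p = 0.0502) and Acaa2 in all but 1 (KO_Sed replicate 3, -0.76, adjusted p = 0.0505). Etfb was lost without WT_Sed replicate 1 or 2, KO_Sed replicate 3 or KO_Ex replicate 3 or 4 (-0.78 to -0.73), Acads without any of 7 libraries and Eci2 without any of 13.

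**Figure D5:**
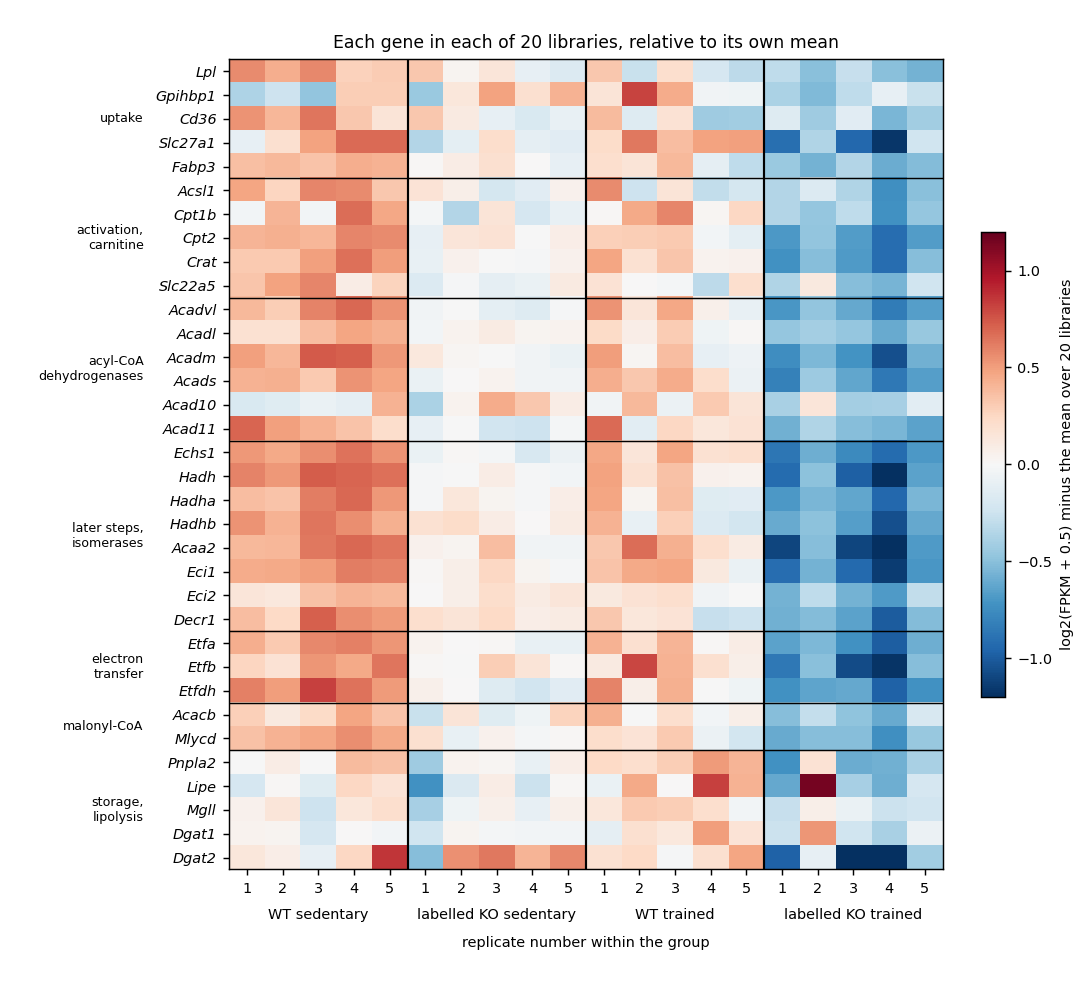
Each of the 34 genes (rows) in each of the 20 libraries (columns, replicates 1 to 5 in 4 groups), as log2(FPKM + 0.5) minus the mean of the gene over all libraries. Red is above and blue below the mean of the gene, and the oxidation rows are red throughout sedentary wild-type and blue throughout trained labelled knockout libraries, except in some libraries for Acad10 in both groups, Cpt1b in the first and Slc22a5 in the second.

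Within the groups the oxidation genes varied together from library to library. After group means were removed, the median Pearson r over 276 pairs of oxidation genes was 0.62 across the 20 libraries, and over 10 pairs of storage genes it was 0.68. Between oxidation and storage genes the median was 0.21 (120 pairs), and between storage and uptake genes -0.21 (25 pairs). The most alike pairs were Acadm with Etfa, Crat with Hadha and Acadvl with Hadha, at 0.95 each. These values are descriptions, since all genes of a library share its depth, tissue sample and scaling.

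Genes of the same pathway outside the 34 were taken from lists of known function, also chosen with earlier results of these data known. Of 24 other measured genes of oxidation and mitochondrial acyl-CoA handling, 4 fell and 1 rose in sedentary and 15 fell and 1 rose in trained labelled knockout hearts (medians -0.20 and -0.46). Slc25a20, the carnitine-acylcarnitine carrier of the inner membrane, had 36.4 ± 5.69 FPKM in trained wild-type and 22.9 ± 3.7 FPKM in trained labelled knockout hearts (-0.66 ± 0.11), and Hsd17b10, a further hydroxyacyl-CoA dehydrogenase, 74.8 ± 9.94 against 42.8 ± 4.24 FPKM (-0.79 ± 0.10). The thioesterase Acot1 fell in all 4 pairwise comparisons (-0.87, -0.95, -0.90 and -0.99 for genotype in sedentary and trained and for training in wild-type and labelled knockout hearts). The gene that rose in sedentary labelled knockout hearts was Ucp2, an uncoupling protein of the inner membrane (14.8 ± 4.62 against 35.1 ± 7.89 FPKM, 1.24 ± 0.30). With each library scaled to the same FPKM sum, 9 fell and 4 rose in trained hearts (median -0.20, beside 0.24 over all genes). Whether the members and these other genes differ was not tested.

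Among 15 other measured genes of uptake and activation 2 fell in sedentary and 6 in trained labelled knockout hearts, and 0 rose. Got2, which is the mitochondrial aspartate aminotransferase and also the plasma membrane fatty acid binding protein, fell in both (-0.52 ± 0.08 and -0.91 ± 0.08), and Acsl6, a further acyl-CoA synthetase, had log2 fold changes of -0.97 and -0.97. Of 30 other genes of storage and lipid synthesis 5 fell and 1 rose in sedentary and 6 fell and 1 rose in trained labelled knockout hearts (medians 0.01 and -0.13), counts to be read against 15.4% of all genes that fell and 12.5% that rose in trained hearts. Those that fell in both include the droplet-forming proteins Fitm1 (-0.45 and -1.41) and Fitm2 (-0.73 and -0.91) and Plin5 (-0.57 and -0.82), the perilipin that joins droplets to mitochondria. In trained hearts the medians of these 2 lists were 0.10 and 0.12 when each library was scaled to the same FPKM sum. Over all genes the median under that scaling was 0.24. Fitm1 also had a lower interaction (-0.96 ± 0.19, adjusted p = 0.00825).

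Of 15 regulators of the pathway, Esrra, which encodes the nuclear receptor ERRα, a partner of PGC-1α on genes of oxidation, passed in every comparison but training in wild-type hearts. It had 86.8 ± 4.98 FPKM in sedentary wild-type, 62.2 ± 1.27 in sedentary labelled knockout, 87.7 ± 3.47 in trained wild-type and 48.6 ± 1.59 in trained labelled knockout hearts. Esrra fell with genotype in sedentary (-0.47 ± 0.05) and trained hearts (-0.85 ± 0.05), was 0.02 ± 0.05 with training in wild-type hearts and had an interaction of -0.37 ± 0.07 (adjusted p = 0.00716). Perm1, a muscle regulator induced with PGC-1α and ERR, fell in both genotype comparisons (-0.57 ± 0.13 and -0.78 ± 0.13). Over all genes tested, 6.32% fell and 6.96% rose with genotype in sedentary hearts, and 15.4% fell and 12.5% rose in trained hearts. Of the 15, 3 fell and 1 (Ppargc1a) rose in each genotype comparison, with medians of -0.32 and -0.03. The second of these was 0.25 with each library scaled to the same FPKM sum, beside 0.24 over all genes. Under that scaling 0 of the 15 fell with training in labelled knockout hearts, against 2 (Esrra and Perm1) as deposited.

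Promoter windows of 300 bases (250 before and 50 after the start) from RefSeq on GRCm38.p6 were at hand for 26 of the 34 members and were searched on both strands. The half-site AGGTCA, bound by ERRα and related nuclear receptors, was in the windows of 5 of the 26 members (19.2%; Acacb, Acadm, Acadvl, Cd36 and Echs1) and in those of 18.1% of all genes. The longer form AAGGTCA was in 2 of 26 (7.69%, against 5.38% of all genes), and the full ERR element TCAAGGTCA was in 0 of 26 (0.466% of all genes). These forms contain one another. The paired element DR1 was in 0 of 26 (0.0481% of all genes), and the E-box CACGTG, bound by clock factors among others, in 3 of 26 (11.5%, against 8.09%; Lipe, Mgll and Slc27a1). The members' shares are near those of all genes, and a match describes letters and not a bound site. The match and its flanks are shown for the 4 members with the half-site before the start, each along the strand of its gene, with the half-site or its reverse complement in capitals (Acadm, chr3:153944860-153944893; Cd36, chr5:17836092-17836146; Echs1, chr7:140116472-140116531; Acadvl, chr11:70015483-70015542, all on the minus strand). In GENCODE the Cd36 stretch is intronic to longer transcripts, the Echs1 stretch reaches into the first exon and lies in an intron of Paox, and the others are intergenic.
Acadm: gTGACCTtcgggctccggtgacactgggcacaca
Cd36: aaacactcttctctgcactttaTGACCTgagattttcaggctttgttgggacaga
Echs1: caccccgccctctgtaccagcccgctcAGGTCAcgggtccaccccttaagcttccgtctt
Acadvl: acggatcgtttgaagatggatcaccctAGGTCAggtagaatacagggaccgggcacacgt

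Markers of cell types also differed between the groups, some in the direction of the members and some against it. In trained labelled knockout against trained wild-type hearts 6 of 8 cardiomyocyte markers also fell (median -0.48), and their summed level ranged from 15387 to 17772 FPKM against 19587 to 24984 FPKM. Over the same libraries 5 of 6 fibroblast markers rose (271 to 379 against 118 to 194 FPKM summed), 5 of 5 macrophage markers rose (114 to 202 against 57.1 to 95.8 FPKM) and 4 of 7 endothelial markers fell (181 to 238 against 238 to 333 FPKM). In sedentary hearts 2 of 8 cardiomyocyte markers fell (22354 to 26106 against 22869 to 27837 FPKM summed), 3 of 5 macrophage markers rose, 0 of 6 fibroblast markers passed and 2 of 7 endothelial markers fell. With training in labelled knockout hearts 7 of 8 cardiomyocyte markers fell, 4 of 6 fibroblast and 5 of 5 macrophage markers rose, and 0 of 7 endothelial markers passed. In wild-type hearts 0 of 8 cardiomyocyte, 0 of 6 fibroblast and 0 of 5 macrophage markers passed with training. Of 7 endothelial markers 1 rose there. With each library scaled to the same FPKM sum, 4 cardiomyocyte markers fell and 1 rose in the trained genotype comparison, 6 of 6 fibroblast and 5 of 5 macrophage markers rose and 1 endothelial marker fell. The part of cell makeup in the members' changes was not tested.

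The scaling between libraries moved the size of the changes. The sum of FPKM over all genes was 331876 to 398369 in trained labelled knockout libraries and 410641 to 531587 in the other groups. When each library was scaled to the same sum (TPM), the median over all genes moved to 0.24 in the trained genotype comparison, 0.21 for training in labelled knockout hearts, 0.15 in the interaction, 0.07 in the sedentary genotype comparison and 0.05 for training in wild-type hearts. The share of lower calls among all genes called went from 55.2 to 13.3%, from 57.5 to 13.5%, from 68.3 to 14.3%, from 47.6 to 27% and from 46.3 to 22.5% in the same order. With a common sum that left out genes of the mitochondrial genome these shares were 20.4, 24.2, 9.52, 50.5 and 64.5%. Under TPM scaling 25, 20, 0, 14 and 2 members still fell and 0 rose, with medians of -0.47, -0.33, -0.15, -0.31 and -0.17. All 24 oxidation genes remained negative in the trained genotype comparison (median -0.52) and for training in labelled knockout hearts (-0.39). The storage genes did not keep 1 sign, and their median for training in labelled knockout hearts was 0.20.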

How the data were processed

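RNA-seq of 20 mouse hearts was taken from the deposited table of FPKM, which the authors computed per gene and library. The submitters' processing notes name HISAT2 2.0.5, featureCounts 1.5.0-p3, DESeq2 1.20.0 and the build mm10, without saying how each was set, and whether strand was used in counting is not given in the sources used here. Multiplying FPKM by exon length gave whole reads (within 0.01 reads) in all libraries for 24971 genes (96.6%), and 14.2 to 30.4 M reads per library. Of the 34 members 32 gave whole reads. Acaa2 and Eci1 did not, and the voom fit left them out for that reason.

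From the FPKM, log2(FPKM + 0.5) of the 13723 genes with a mean of at least 0.5 FPKM was fitted with limma 3.58.1 (R 4.3.3; lmFit and eBayes with trend, 1 fit of 4 groups, 16 residual degrees of freedom, no replicate block), leaving out 12128 genes. P-values are two-sided and adjusted by Benjamini-Hochberg over all genes tested in each of 5 comparisons, with a threshold of 0.05. The code was tested on simulated data. Summaries used Python 3.11.15, pandas 2.3.3 and numpy 2.4.6. Replicate numbers of the labels were not treated as pairs in the main fit. Of 30 same-numbered pairs of libraries 12 deviated together with a correlation over 0.1, and the 30 ranged from -0.278 to 0.484. All pairs of replicate 1 were positive (0.251 to 0.364), and whether these libraries share a factor was not tested.

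The 34 genes and all lists were chosen with earlier results of these data known. Values of every library are given, per role class, for the gene with the smallest sedentary genotype p, the gene with the largest pairwise change and any gene past the interaction threshold. From other lists at most 4 called genes with the smallest p were eligible per comparison. Alternatives covered the pseudocount, the filter, the scaling, array weights, robust moderation, the replicate block, voom on recovered reads and each library left out. The voom fit kept the library sizes behind the FPKM, and read totals as library sizes were not tested. Fits without the libraries high in Myl7 or Arntl, or with either as a covariate, were chosen after seeing the data. Promoter windows are from RefSeq (GRCm38.p6), and gene positions are from GENCODE M21 (GRCm38).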

Additional observations from a re-analysis of the deposited data

Results flagged for a closer look

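Of 56 groups of 5 libraries checked over the 14 members described library by library, 3 held 1 library far from the others, by a gap to its nearest neighbour above 0.71 of the group's range. Chance flags about 1 in 20 groups. Acaa2 was highest in KO_Sed replicate 3, at 659 FPKM. Dgat2 was highest in WT_Sed replicate 5, at 237 FPKM, and lowest in KO_Sed replicate 1, at 91.1 FPKM.

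The training change differed between genotypes, by the limma interaction test, for 6 members. Taking wild-type hearts from labelled knockout hearts, the difference of the changes was -0.84 for Acaa2, -0.82 for Etfb, -0.66 for Eci1, -0.49 for Acads, -0.44 for Echs1 and -0.39 for Eci2 on the log2 scale.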

How the results depend on the processing

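The only call of a member as higher was that of Gpihbp1 in sedentary hearts with array weights (0.44, adjusted p = 0.0248 by limma), and among values of single members none reversed, 637 kept their side of the threshold and 74 lost it. Among the counts and medians over the 34 members 310 values moved little and 48 moved. In sedentary hearts 9 members passed with Arntl as a covariate (median -0.43), and single leave-outs gave 14 to 21. Without the high-Arntl libraries, which leaves 1 sedentary wild-type library, the median was -0.38. The trained genotype median was -0.47 under TPM scaling, -0.54 with a common sum without mitochondrial genes and -0.91 without the high-Myl7 libraries. The labelled knockout training median was -0.33 and -0.41 under those 2 scalings. For training in wild-type hearts 1 member passed with no filter, 2 under TPM scaling, 0 in a fit of the 2 groups alone and 15 with array weights. Without the high-Myl7 libraries 0 passed (median -0.12), and without the high-Arntl libraries the median was -0.30. With Myl7 as a covariate 1 passed, with Arntl 0, and leaving out 1 library gave 0 to 19. For the interaction 0 passed under TPM scaling (median -0.15, beside 0.15 over all genes). With the common sum without mitochondrial genes 0 passed (median -0.11, beside 0.19 over all genes). Array weights gave 19, and voom 3 of 32 (Acads, Echs1 and Etfb, with Eci2 lost and with Acaa2 and Eci1 not in that fit). Without the high-Myl7 libraries 20 passed (median -0.58), with Arntl as a covariate 0, and leaving out 1 library gave 2 to 12. The fit without the high-Arntl libraries, with 1 sedentary wild-type library, is described above by its median. The cause was not tested, except that leaving libraries out reduces n. With the replicate block 22, 30, 13, 27 and 6 members passed in the sedentary genotype, trained genotype, wild-type training, labelled knockout training and interaction comparisons, and 5 of 20 libraries correlated best with their own number. No fit of the compared groups alone was run for the interaction, which uses all groups. Depth limits the low genes most, and Cpt1b and Acad10 lie near 2 FPKM.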
